A study of Homo sapiens with 9 samples.

Results

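The nuclear genes for subunits of the mitochondrial respiratory chain were examined in Huh-7 cells that lack 1 of the vault RNAs, small noncoding RNAs named vtRNA1-1 and vtRNA1-2. A list of 57 genes was used, with 27 subunits of complex I, 4 of complex II, 7 of complex III, 11 of complex IV and 8 of complex V. Each gene was looked up by its Ensembl identifier among the 60664 identifiers of the count table, and all 57 were found and were among the 17207 genes that passed the filter on low counts. Huh-7 is a human hepatocellular carcinoma line, and 3 untreated lines were sequenced with 3 libraries each. WT cells carried the vault RNA genes, 1-1 KO cells lacked VTRNA1-1 and 1-2 KO cells lacked VTRNA1-2, both removed by CRISPR/Cas9. WT and 1-1 KO cells came from another laboratory, 1-2 KO was grown from 1 edited cell of the WT line, and each knockout was thus represented by 1 line. RNA was extracted in triplicate from cells near confluency. The study calls the libraries biological replicates, but whether they came from separate cultures is not stated, so p-values measure the spread between these libraries.

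The respiratory chain sits in the inner mitochondrial membrane and passes electrons from NADH and succinate to oxygen through complexes I to IV. Complexes I, III and IV pump protons as they do so, and complex V, the ATP synthase, uses the returning protons to make ATP. A small core of subunits is encoded by mitochondrial DNA, except in complex II, while all other subunits are made from nuclear mRNAs in the cytosol and imported. Hepatocytes are rich in mitochondria, and each complex needs its subunits in fixed proportions.

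Total counts were between 32384469 and 41782387 per library. The deletions could not be checked in these mRNA libraries, where WT replicate 1 held a single VTRNA1-1 count and all else was at 0 for both vault RNA genes. Levels are given as CPM, counts scaled to a common library total, after TMM normalization, an edgeR scaling for differences in library composition. A gene was called higher or lower where edgeR's quasi-likelihood test gave an adjusted p under 0.05 over all 17207 tested genes. Positions are those of GRCh38. Alternatives chosen after seeing the data were a fit with exon GC content as an offset (the GC offset) and a fit without the 3 libraries that stood apart among these genes, WT replicates 1 and 3 and 1-2 KO replicate 1. The summed level of 8 hepatocyte markers ranged from 13520 to 14437 CPM in WT, from 28942 to 29846 in 1-1 KO and from 19957 to 21844 in 1-2 KO, and no marker was at 0. Of the markers of other cell types, 4 immune genes summed to 113 to 114.0 CPM in WT, 98.5 to 105 in 1-1 KO and 19.8 to 20.7 in 1-2 KO. The 5 fibroblast markers summed to 184 to 195, 279 to 292 and 115 to 123 CPM, and the 4 endothelial markers to 7.39 to 8.04, 6.40 to 7.22 and 0.831 to 1.105 CPM, with KDR at 0 counts in all 3 lines and CDH5 in 1-1 KO. Single markers did not all follow their sums. In 1-2 KO, 4 of 8 hepatocyte markers were called higher and 2 lower, and of 4 tested fibroblast markers 3 were higher and 1 lower. In 1-1 KO, 7 hepatocyte markers were higher and 0 lower, and 3 fibroblast markers were higher and 0 lower. Of 2 tested immune markers, 1 was higher and 1 lower in each knockout. The part of these shifts in the results below was not tested. Each sample was a culture of a Huh-7 line, not a mixed tissue. In such bulk samples, fewer cells that express a marker and less of its RNA per cell cannot be told apart.

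In 1-1 KO compared to WT, 18 of the 57 subunit genes were higher, 22 were lower and 17 were not called. Across all tested genes 63.4% were called, 32.5% higher and 30.9% lower, so that the 70.2% of subunit genes called lay near the background. Their median log2 fold change was -0.01, beside 0.01 over all tested genes. In 1-2 KO compared to WT, 8 were higher, 24 were lower and 25 were not called. Here the background was 54.4% called, 28.2% higher and 26.2% lower, so that the share of subunit genes called, 56.1%, was near it while the shares called higher and lower were 14.0% and 42.1%. The median was -0.07, beside 0.02 over all tested genes. Without WT replicate 1 or WT replicate 2, 4 and 5 genes were higher in 1-2 KO. With scaling by library size alone, the split was 21 higher and 18 lower in 1-1 KO, and 13 higher and 19 lower in 1-2 KO. The values of the WT and 1-1 KO libraries did not overlap for 44 genes (77.2%), with a background of 68.9%. Those of the WT and 1-2 KO libraries did not overlap for 28 genes (49.1%), with a background of 58.4%. Both comparisons share the WT libraries. Most changes were small, and 5 called genes in each knockout moved by more than 0.5 on the log2 scale.

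**Figure D1:**
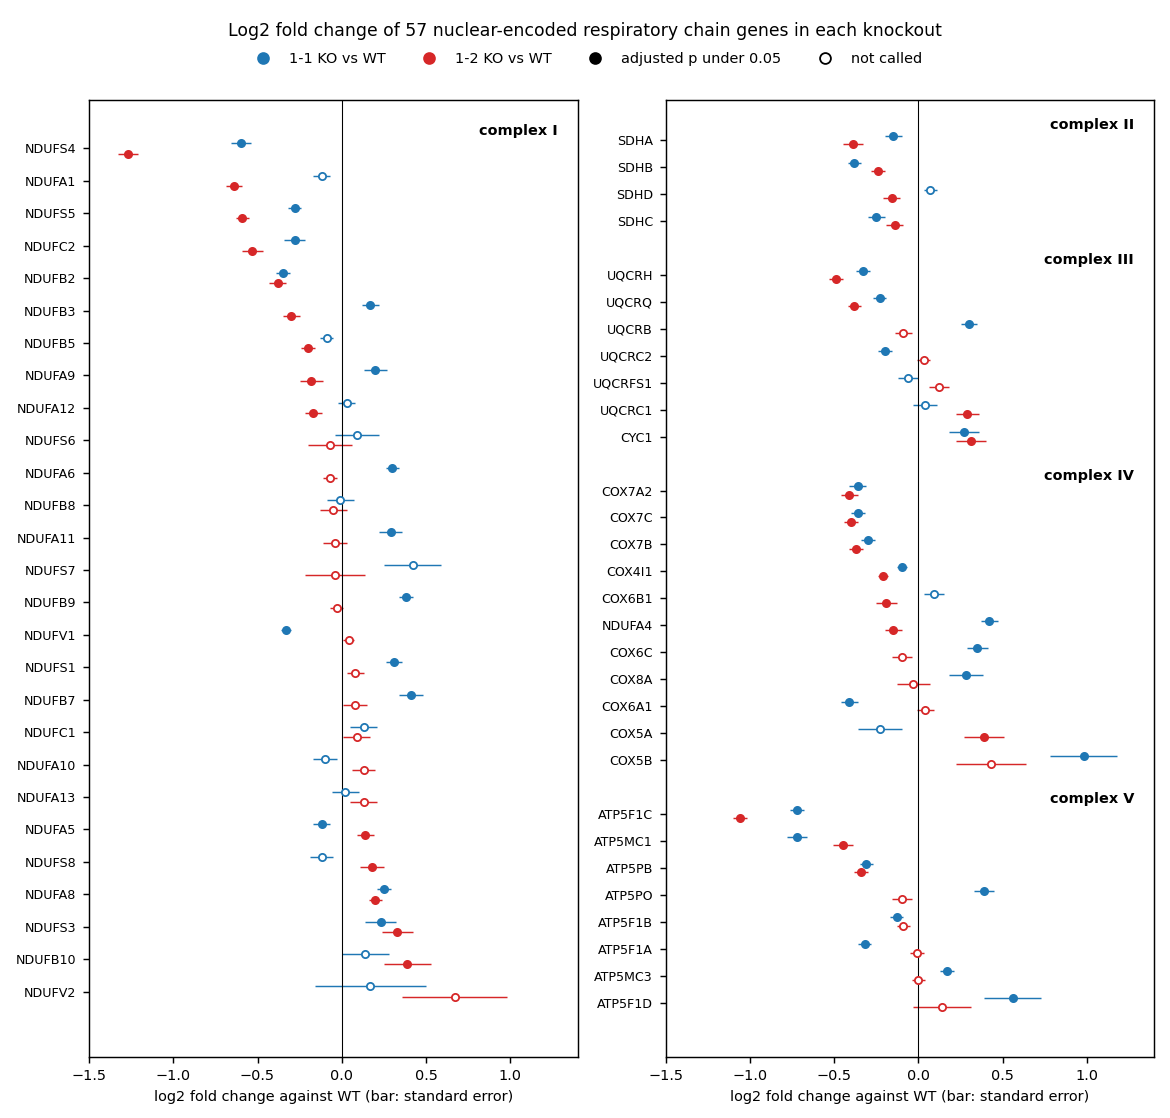
Log2 fold change of each of the 57 subunit genes in 1-1 KO (blue) and 1-2 KO (red) compared to WT, grouped by complex, with bars of 1 standard error and filled points for an adjusted p under 0.05. NDUFS4 and ATP5F1C lay farthest to the left, at -1.27 and -1.06 in 1-2 KO, and COX5B farthest to the right, at 0.98 in 1-1 KO.

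NDUFS4, ATP5F1C and ATP5MC1 were the 3 genes that fell most in 1-1 KO, and the 250 bases before their start sites are shown because each was also lower in 1-2 KO. The sequences are those of RefSeq on GRCh38.p14, 5′ to 3′ on the plus strand, which is the coding strand of all 3 genes. Capitals mark the letters of NRF1, a transcription factor known for binding promoters of respiratory chain genes.
NDUFS4 (chr5:53560389-53560638): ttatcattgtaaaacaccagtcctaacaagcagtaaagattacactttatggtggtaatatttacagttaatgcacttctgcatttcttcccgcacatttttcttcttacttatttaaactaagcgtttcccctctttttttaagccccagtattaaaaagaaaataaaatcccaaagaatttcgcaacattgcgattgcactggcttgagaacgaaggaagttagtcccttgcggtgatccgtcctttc
ATP5F1C (chr10:7787927-7788176): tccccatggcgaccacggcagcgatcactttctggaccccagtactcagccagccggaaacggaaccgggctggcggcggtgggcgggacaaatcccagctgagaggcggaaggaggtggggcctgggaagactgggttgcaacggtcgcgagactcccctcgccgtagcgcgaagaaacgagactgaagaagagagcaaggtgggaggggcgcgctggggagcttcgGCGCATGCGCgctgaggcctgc
ATP5MC1 (chr17:48892537-48892786): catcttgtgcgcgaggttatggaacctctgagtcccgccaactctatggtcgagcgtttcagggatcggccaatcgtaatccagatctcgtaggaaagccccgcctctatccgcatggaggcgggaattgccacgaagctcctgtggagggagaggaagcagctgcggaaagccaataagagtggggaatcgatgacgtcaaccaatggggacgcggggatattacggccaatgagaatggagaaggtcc

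Promoter windows of 300 bases, 250 before and 50 after the start, were found in RefSeq for 45 of the 57 genes. Both strands were searched for exact matches to a palindromic NRF1 motif (the letters in capitals above), to CCGGAAG (the ETS family, which includes the GABP factor of respiratory genes) and to a YY1 motif, none of which lies within another. The NRF1 motif was present in 3 of the 45 windows (6.67%) and in 1.24% of all 35116 RefSeq promoter windows. For CCGGAAG the shares were 14 of 45 (31.1%) and 10.3%, and for the YY1 motif 4 of 45 (8.89%) and 0.849%. At least 1 of the 3 was present in 19 of the 45 windows (42.2%), compared with 11.9% of all windows. Each subunit gene gave 1 window, whereas the 35116 were reduced neither to 1 per gene nor to tested genes. The shares are therefore not like for like, and enrichment was not tested. For genes lower in both knockouts this was 6 of 13 windows (46.2%). For genes higher in at least 1 knockout and lower in none it was 7 of 13 (53.8%). Of the 3 promoters shown, ATP5F1C held the NRF1 motif from 22 bases before the start, NDUFS4 held the YY1 motif within the 50 bases after it, and ATP5MC1 held none of the 3. A match is a run of letters and was not tested as a binding site.

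Complex I takes electrons from NADH and passes them to ubiquinone, and its largest called change in each knockout was the fall of NDUFS4. In 1-1 KO, 9 of its 27 genes were higher, 6 lower and 12 not called, with a median log2 fold change of 0.09. In 1-2 KO, 5 were higher, 9 lower and 13 not called, with a median of -0.04. NDUFS4 (ENSG00000164258, chromosome 5, 53560633 to 53683338), an accessory subunit near the NADH-oxidizing module whose loss can cause Leigh syndrome, was at 41.1, 42.7 and 41.1 CPM in the WT libraries, at 28.5, 25.8 and 28.0 in 1-1 KO and at 17.0, 18.8 and 16.2 in 1-2 KO. All 1-2 KO libraries lay below all 1-1 KO libraries, and these below all WT libraries. Its level fell 1.52-fold in 1-1 KO (log2 fold change -0.60, SE 0.06, adjusted p = 6.58e-07) and 2.40-fold in 1-2 KO (-1.27, SE 0.06, adjusted p = 5.49e-10). NDUFS5, NDUFA1 and NDUFC2, further accessory subunits, are given in full although they were chosen after their values were seen. NDUFS5 was at 184, 192 and 194 CPM in WT, 157, 154 and 157 in 1-1 KO and 121, 129 and 128 in 1-2 KO. The 3 lines did not overlap, and the log2 fold change was -0.28 (SE 0.04, adjusted p = 8.60e-06) in 1-1 KO and -0.59 (SE 0.04, adjusted p = 6.52e-09) in 1-2 KO. NDUFA1, a small membrane subunit encoded on the X chromosome, was at 97.2, 98.7 and 100.4 CPM in WT, 90.4, 85.3 and 96.3 in 1-1 KO and 59.5, 68.4 and 62.8 in 1-2 KO. It was lower in 1-2 KO (-0.64, SE 0.05, adjusted p = 1.53e-07), where every library lay below those of both other lines, and it was not called in 1-1 KO (-0.12, SE 0.05, adjusted p = 0.0505). The level in 1-1 KO was called without 1-1 KO replicate 3 (-0.17), 1-2 KO replicate 1 or 1-2 KO replicate 2 (-0.12 each), and with DESeq2 (-0.14). NDUFC2 was at 48.0, 54.0 and 49.1 CPM in WT, 43.7, 41.0 and 39.4 in 1-1 KO and 33.8, 32.8 and 38.2 in 1-2 KO, again with no overlap between lines, and fell in both knockouts (-0.28 and -0.53, adjusted p = 0.0013 and 7.35e-06).

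The core subunits of complex I differed from each other. NDUFV1 (ENSG00000167792, chromosome 11, 67605653 to 67612554), which binds NADH and the flavin, was at 508, 500.5 and 501 CPM in WT, 392, 403 and 403 in 1-1 KO and 525, 505 and 522 in 1-2 KO. The 1-1 KO libraries lay below all others, at a log2 fold change of -0.33 (SE 0.03, adjusted p = 5.79e-07), while 1-2 KO overlapped with WT (0.04, SE 0.03, adjusted p = 0.31), where library size alone gave a call (0.10). NDUFS1 (ENSG00000023228, chromosome 2, 206114817 to 206159509), the largest subunit with several iron-sulfur clusters, was at 212, 223 and 213 CPM in WT, 269, 275 and 258 in 1-1 KO and 212, 238 and 235 in 1-2 KO. All 1-1 KO libraries lay above all others (0.31, SE 0.05, adjusted p = 3.85e-05), and 1-2 KO overlapped with WT (0.08, SE 0.05, adjusted p = 0.166). The value in 1-2 KO was called without 1-2 KO replicate 1 (0.13), with library size alone (0.13) and with the GC offset (0.14). Of the quinone-reducing core subunits, NDUFS3 was called higher in 1-1 KO (0.23, adjusted p = 0.0438) and in 1-2 KO (0.33, adjusted p = 0.00757), NDUFS8 in 1-2 KO (0.18, adjusted p = 0.0488) and NDUFS7 in neither. In 1-2 KO both called genes overlapped with WT, and replicate 1 was highest. NDUFS3 ranged from 48.4 to 62.1 CPM in WT and from 61.4 to 80.6 in 1-2 KO. NDUFS8 ranged from 178 to 235 and from 224 to 243. Their calls with 1 library left out are not given here. Among the subunits of the distal membrane arm, NDUFB7 (ENSG00000099795, chromosome 19, 14566078 to 14572066) had the largest rise of a called complex I gene in 1-1 KO, from 40.6, 48.1 and 51.7 CPM in WT to 63.1, 62.4 and 60.9 (0.41, SE 0.07, adjusted p = 9.56e-05), a value of 0.20 with the GC offset. In 1-2 KO it was at 51.1, 47.3 and 49.3 CPM, between the outer WT libraries (0.08, SE 0.07, adjusted p = 0.365). NDUFB10 (ENSG00000140990, chromosome 16, 1959538 to 1961975), of the same arm, was at 41.2, 50.8 and 66.0 CPM in WT, 59.5, 57.9 and 56.0 in 1-1 KO and 82.5, 62.6 and 60.8 in 1-2 KO. Its values in 1-2 KO overlapped with WT replicate 3, and the call in 1-2 KO (0.39, SE 0.14, adjusted p = 0.0264) was lost without WT replicate 1 (0.24), WT replicate 2 (0.36) or 1-2 KO replicate 1 (0.24), and with DESeq2 (0.37, adjusted p = 0.138). In 1-1 KO it was not called (0.14, adjusted p = 0.394), but was called without WT replicate 3 (0.33), and was at -0.01 without WT replicate 1.

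NDUFB3 and NDUFA9, both accessory subunits of complex I, and NDUFA4, long counted with complex I and now placed in complex IV, were called in opposite directions in the knockouts. NDUFA4 (ENSG00000189043, chromosome 7, 10931943 to 10940153) was at 264, 297 and 283 CPM in WT, 377, 373 and 380.2 in 1-1 KO and 238, 258 and 264 in 1-2 KO. The 1-1 KO libraries stood above all others, at a log2 fold change of 0.42 (SE 0.05, adjusted p = 2.57e-06), while the 1-2 KO libraries partly overlapped with WT (-0.15, SE 0.05, adjusted p = 0.0154) and were not called lower without WT replicate 2 (-0.11), with the GC offset (-0.06, adjusted p = 0.195) or with library size alone (-0.10, adjusted p = 0.0786). NDUFB3 (ENSG00000119013, chromosome 2, 201071433 to 201085750) was at 81.0, 91.2 and 84.2 CPM in WT, 94.9, 91.9 and 102.6 in 1-1 KO and 68.9, 70.3 and 68.4 in 1-2 KO. The lines did not overlap, with log2 fold changes of 0.17 (SE 0.05, adjusted p = 0.00614) in 1-1 KO and -0.30 (SE 0.05, adjusted p = 1.16e-04) in 1-2 KO, and the first was not called without the 3 libraries that stood apart (0.07). NDUFA9 (ENSG00000139180, chromosome 12, 4649095 to 4694317) was at 20.6, 19.4 and 18.9 CPM in WT, 22.0, 24.6 and 21.1 in 1-1 KO and 16.9, 16.9 and 18.4 in 1-2 KO, also without overlap. Its calls were close to the threshold (0.20, adjusted p = 0.0200, and -0.18, adjusted p = 0.0411). The rise was lost without WT replicate 2 (0.19), WT replicate 3 (0.17) or 1-1 KO replicate 2 (0.13), and the fall without WT replicate 1 (-0.14), WT replicate 2 (-0.19), 1-1 KO replicate 1 (-0.18), 1-2 KO replicate 1 (-0.16) or 1-2 KO replicate 2 (-0.16). Both calls were lost with DESeq2 (0.18 and -0.19), and the fall also with library size alone or the GC offset (-0.12 each). NDUFA5 was called in the reverse order, with -0.12 in 1-1 KO (adjusted p = 0.0417) and 0.14 in 1-2 KO (adjusted p = 0.0224).

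**Figure D2:**
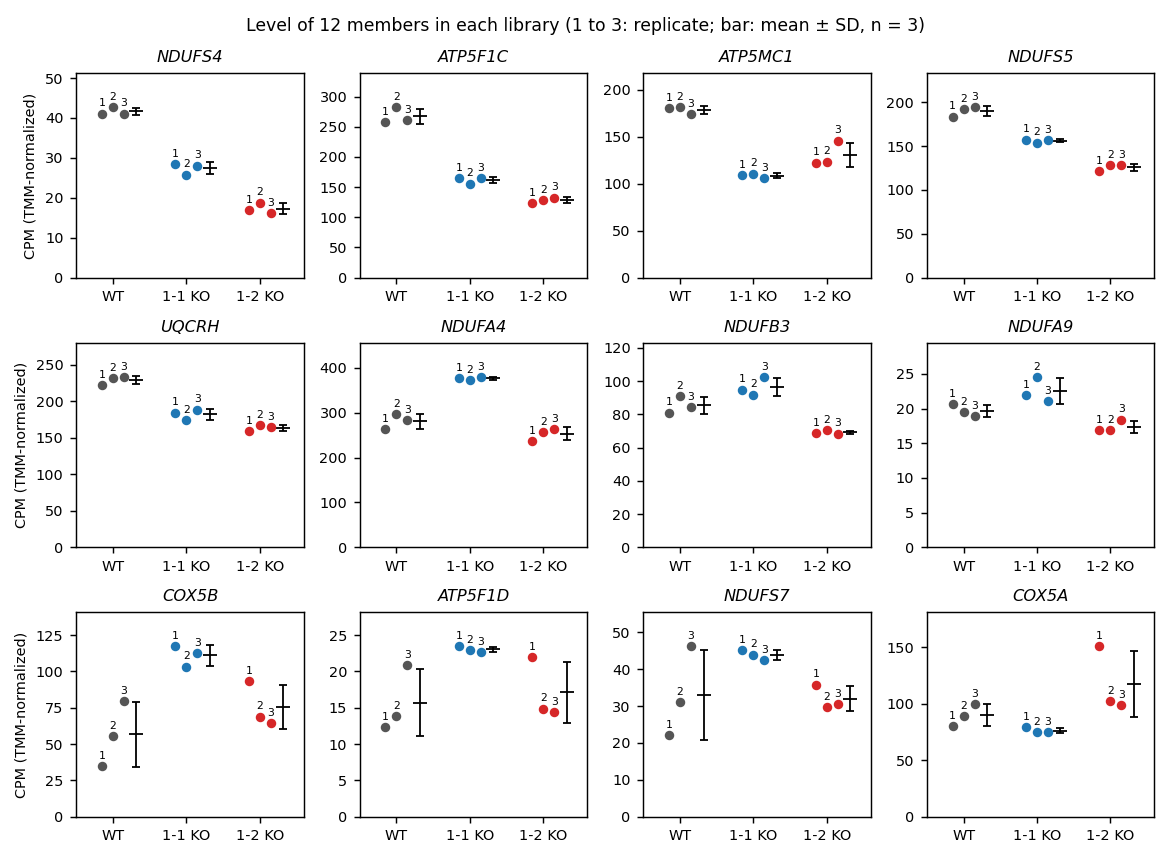
Level of 12 subunit genes in CPM in each library (points, numbered by replicate), with the mean ± SD of the 3 libraries of a line beside them. The first 5 panels show genes whose lines did not overlap or fell in both knockouts, the next 3 those called in opposite directions, and the last 4 genes with a wide spread within WT or 1-2 KO. NDUFS4 fell from about 41.6 CPM in WT to 17.3 in 1-2 KO, while COX5B ranged from 34.9 to 79.7 CPM within WT alone.

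Complex II, succinate dehydrogenase, links the citric acid cycle to the chain, and its 4 genes are all nuclear. In 1-1 KO, 3 were lower and 1 was not called, and in 1-2 KO all 4 were lower, with a median log2 fold change of -0.20 in each. SDHA (ENSG00000073578, chromosome 5, 218303 to 257082), the flavoprotein that oxidizes succinate, was at 31.7, 29.3 and 33.2 CPM in WT, 28.9, 27.2 and 28.4 in 1-1 KO and 24.4, 23.3 and 24.4 in 1-2 KO. All WT libraries lay above all 1-1 KO libraries, and these above all 1-2 KO libraries. The fall in 1-1 KO was small (-0.15, SE 0.05, adjusted p = 0.0243) and was lost without WT replicate 1 (-0.15), WT replicate 3 (-0.11), 1-1 KO replicate 2 (-0.13) or 1-1 KO replicate 3 (-0.16), and with library size alone or the GC offset (-0.10 each), while that in 1-2 KO (-0.39, SE 0.06, adjusted p = 3.97e-05) held without each library in turn. SDHB (ENSG00000117118, chromosome 1, 17018664 to 17054032), the iron-sulfur subunit, was at 86.6, 93.3 and 97.9 CPM in WT, 71.2, 72.3 and 69.8 in 1-1 KO and 79.0, 79.3 and 77.6 in 1-2 KO. The WT libraries stood highest and the 1-1 KO libraries lowest, with log2 fold changes of -0.38 (SE 0.04, adjusted p = 2.69e-06) in 1-1 KO and -0.24 (SE 0.04, adjusted p = 3.12e-04) in 1-2 KO. Of the membrane anchors, SDHC was lower in both comparisons (-0.25 and -0.14) and SDHD in 1-2 KO (-0.16, adjusted p = 0.00703), with 0.07 in 1-1 KO (adjusted p = 0.175). The summed level of the 4 genes was 306 ± 7.58 CPM in WT, 263 ± 4.16 in 1-1 KO and 267 ± 9.28 in 1-2 KO (SD, n = 3 libraries).

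Complex III, which passes electrons from ubiquinol to cytochrome c, had as many genes up as down in 1-2 KO. There 2 of 7 were higher, 2 lower and 3 not called, and in 1-1 KO 2 were higher, 3 lower and 2 not called, with medians of 0.03 and -0.06. UQCRH (ENSG00000173660, chromosome 1, 46303698 to 46316776), the acidic hinge protein, fell most in both knockouts. It was at 222, 232 and 233 CPM in WT, 184, 174 and 188 in 1-1 KO and 159, 168 and 164 in 1-2 KO. Without overlap between lines, the log2 fold changes were -0.33 (SE 0.04, adjusted p = 3.83e-06) and -0.49 (SE 0.04, adjusted p = 1.07e-07). UQCRQ, a small subunit beside cytochrome b, was also lower, at -0.23 and -0.38 (adjusted p = 1.98e-04 and 1.80e-06). UQCRB (ENSG00000156467, chromosome 8, 96222947 to 96235546), a ubiquinone-binding subunit, was at 183, 196 and 193 CPM in WT, 237, 221 and 245 in 1-1 KO and 171, 186 and 180.4 in 1-2 KO. All 3 libraries of 1-1 KO lay above all others (0.30, SE 0.05, adjusted p = 5.19e-05), and 1-2 KO overlapped with WT (-0.09, SE 0.05, adjusted p = 0.128).

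The nuclear subunits of complex III that carry electrons are CYC1 and UQCRFS1. CYC1 (ENSG00000179091, chromosome 8, 144095039 to 144097525), cytochrome c1, was at 81.9, 80.5 and 84.0 CPM in WT, 99.3, 100.8 and 96.5 in 1-1 KO and 123, 85.4 and 96.0 in 1-2 KO. All WT libraries lay below all knockout libraries, and 1-2 KO replicate 1 stood apart from the other 1-2 KO libraries. The rise was called in 1-1 KO (0.27, SE 0.09, adjusted p = 0.0207) and in 1-2 KO (0.31, SE 0.09, adjusted p = 0.0119), but that in 1-1 KO was lost without WT replicate 2 (0.25), 1-1 KO replicate 1 (0.27) or 1-1 KO replicate 2 (0.25), and that in 1-2 KO was smaller without 1-2 KO replicate 1 (0.14). Both calls were lost with DESeq2 (0.25 and 0.29, adjusted p = 0.112 and 0.0643) and with the GC offset (0.14 and 0.12, adjusted p = 0.0559 and 0.125). UQCRFS1 (ENSG00000169021, chromosome 19, 29205320 to 29213151), the Rieske iron-sulfur protein, was at 86.8, 89.6 and 89.8 CPM in WT, 83.7, 85.8 and 85.0 in 1-1 KO and 109, 90.7 and 90.7 in 1-2 KO. The lines did not overlap, yet neither knockout was called (-0.06 and 0.12, adjusted p = 0.345 and 0.083). Without 1-2 KO replicate 2 or 1-2 KO replicate 3 the value in 1-2 KO was 0.17 and was called, as it was at 0.18 with library size alone or the GC offset. The pseudogene UQCRFS1P1 on chromosome 22 was also highest in 1-2 KO replicate 1, at 3.20 CPM, and at 0.126 to 0.535 CPM in the other libraries. The core proteins differed, with UQCRC1 higher in 1-2 KO (0.29, adjusted p = 0.00221) and UQCRC2 lower in 1-1 KO (-0.20, adjusted p = 1.80e-04).

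Complex IV, cytochrome c oxidase, reduces oxygen to water at a core made in mitochondria, around which the nuclear subunits are built. Of its 11 genes, 4 were higher, 5 lower and 2 not called in 1-1 KO (median -0.10), and 1 was higher, 6 lower and 4 not called in 1-2 KO (median -0.15). The small membrane subunits COX7A2, COX7B and COX7C were lower in both comparisons, at log2 fold changes from -0.36 to -0.30 in 1-1 KO and from -0.41 to -0.37 in 1-2 KO. For COX7A2 (ENSG00000112695, chromosome 6, 75237675 to 75250323) the levels were 264, 297 and 273 CPM in WT, 219.8, 215 and 215 in 1-1 KO and 194, 212 and 223 in 1-2 KO. Both knockouts lay below WT and overlapped with each other, at -0.36 (SE 0.05, adjusted p = 3.29e-05) and -0.41 (SE 0.05, adjusted p = 1.37e-05). COX4I1 (ENSG00000131143, chromosome 16, 85798633 to 85807068), the largest nuclear subunit, was at 410.2, 418 and 419.9 CPM in WT, 389, 383 and 395 in 1-1 KO and 368, 352 and 356 in 1-2 KO. The lines were in this order in every library, with -0.10 in 1-1 KO (SE 0.03, adjusted p = 0.0191) and -0.21 in 1-2 KO (SE 0.03, adjusted p = 7.16e-05). The call in 1-1 KO was lost without WT replicate 3 (-0.09), 1-1 KO replicate 1 (-0.10) or 1-1 KO replicate 2 (-0.08), and with library size alone or the GC offset (-0.05 each).

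COX6A1 (ENSG00000111775, chromosome 12, 120438090 to 120440737), the non-muscle form of subunit VIa, had the largest fall of complex IV in 1-1 KO. It was at 151, 160.4 and 152 CPM in WT, 119, 122 and 108 in 1-1 KO and 162, 149 and 167 in 1-2 KO, so that 1-1 KO lay below both other lines (-0.41, SE 0.05, adjusted p = 7.47e-06) and 1-2 KO overlapped with WT (0.04, SE 0.05, adjusted p = 0.513). COX5B (ENSG00000135940, chromosome 2, 97646062 to 97648383), a zinc-binding subunit on the matrix side, had the largest rise of all 57 genes. Its level was 34.9, 55.3 and 79.7 CPM in WT, 117, 103 and 113 in 1-1 KO and 93.1, 69.0 and 64.7 in 1-2 KO. The 1-1 KO libraries stood above all others, while WT had a wide range, with 1-2 KO replicate 1 above it and the other 1-2 KO libraries within it. The increase was 1.97-fold in 1-1 KO (0.98, SE 0.20, adjusted p = 7.81e-04) and was not called in 1-2 KO (0.43, SE 0.21, adjusted p = 0.0964), where it was called without WT replicate 3 (0.73) or the 3 libraries that stood apart (0.26). COX5A (ENSG00000178741, chromosome 15, 74919791 to 74938083), its partner at the matrix face, was at 80.5, 88.9 and 99.9 CPM in WT, 79.2, 74.7 and 75.3 in 1-1 KO and 151, 102.5 and 98.9 in 1-2 KO. The high value in 1-2 KO was that of replicate 1, and the lowest 1-2 KO library overlapped with WT. The call in 1-2 KO (0.39, SE 0.12, adjusted p = 0.0159) was lost without WT replicate 1 (0.32) or WT replicate 2 (0.38), and with DESeq2 (0.38, adjusted p = 0.0952), and the value was 0.17 without 1-2 KO replicate 1. In 1-1 KO it was not called (-0.23, SE 0.13, adjusted p = 0.124) although all its libraries lay below WT, and it was called without 1-2 KO replicate 1 (-0.23).

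Complex V, the ATP synthase, joins a catalytic F1 head to a rotating ring in the membrane. Of its 8 genes, 3 were higher and 5 lower in 1-1 KO (median -0.22), and 3 were lower and 5 not called in 1-2 KO (median -0.09). ATP5F1C (ENSG00000165629, chromosome 10, 7788147 to 7807815), the gamma subunit that forms the central rotor shaft, was at 258, 282 and 261 CPM in WT, 165, 156 and 165 in 1-1 KO and 123, 129 and 133 in 1-2 KO. The lines did not overlap, and the level fell 1.65-fold in 1-1 KO (-0.72, SE 0.04, adjusted p = 4.01e-09) and 2.08-fold in 1-2 KO (-1.06, SE 0.04, adjusted p = 9.99e-11). ATP5MC1, 1 of the genes for the c ring, was chosen after its values were seen and was at 180.5, 182 and 174 CPM in WT, 109, 111 and 106 in 1-1 KO and 123, 124 and 146 in 1-2 KO. Here 1-1 KO was lowest in every library, at -0.72 (SE 0.06, adjusted p = 6.05e-08), and 1-2 KO lay between the other lines, at -0.45 (SE 0.06, adjusted p = 8.73e-06). ATP5MC3, which encodes the same mature c subunit, was higher in 1-1 KO (0.17, adjusted p = 0.0011), and in 1-2 KO its log2 fold change was 0.00 (adjusted p = 0.997).

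The large subunits of the F1 head were lower in 1-1 KO. ATP5F1B (ENSG00000110955, chromosome 12, 56638175 to 56645984), the catalytic beta subunit, was at 1369, 1457 and 1514 CPM in WT, 1332, 1326 and 1307 in 1-1 KO and 1315, 1369 and 1402 in 1-2 KO. All 1-1 KO libraries lay below WT, at a log2 fold change of -0.13 (SE 0.04, adjusted p = 0.0119), while 1-2 KO overlapped with WT and was not called (-0.09, SE 0.04, adjusted p = 0.085). It was called there without WT replicate 1 (-0.13) or the 3 libraries that stood apart (-0.09), and with DESeq2 (-0.10), and the call in 1-1 KO was lost with library size alone (-0.08). ATP5F1A (ENSG00000152234, chromosome 18, 46080248 to 46104334), the alpha subunit, was at 604, 623 and 601 CPM in WT, 479.5, 493 and 489 in 1-1 KO and 579, 611 and 629.97 in 1-2 KO. It was lower in all 1-1 KO libraries (-0.32, SE 0.04, adjusted p = 3.29e-06), and WT lay within the range of 1-2 KO (-0.01, SE 0.04, adjusted p = 0.90). ATP5F1D (ENSG00000099624, chromosome 19, 1241746 to 1244825), the delta subunit of the central stalk, was at 12.3, 13.9 and 20.9 CPM in WT, 23.4, 23.0 and 22.6 in 1-1 KO and 22.0, 14.9 and 14.4 in 1-2 KO. WT replicate 3 and 1-2 KO replicate 1 stood apart from the other libraries of their lines. The rise in 1-1 KO (0.56, SE 0.17, adjusted p = 0.0106) was lost without WT replicate 1 (0.41) or WT replicate 2 (0.48) and with DESeq2 (0.54, adjusted p = 0.0645), and was 0.27 with the GC offset. In 1-2 KO it was not called (0.14, SE 0.17, adjusted p = 0.532). In the peripheral stalk, ATP5PB was lower in both comparisons (-0.31 and -0.34), and ATP5PO was higher in 1-1 KO (0.39, adjusted p = 9.59e-05) and not called in 1-2 KO (-0.10, adjusted p = 0.20).

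Levels between genes were compared per kilobase of exon in WT cells. Exon length was that of all annotated exons of a gene, merged over its transcripts. It can exceed the length of any 1 mRNA, and was 12600 bases for UQCRB and 19359 for NDUFA10. The median was 15.6 CPM per kb for complex I, 28.0 for complex II, 37.1 for complex III, 86.4 for complex IV and 71.0 for complex V. ATP5F1B was highest, at 646 CPM per kb, and NDUFV2 lowest, at 0.903. The order of the complexes depends on these merged lengths and is only a description of these genes. The ranges within complexes were wide, from 0.903 to 347 CPM per kb in complex I. They were from 30.8 (COX7B) to 204 (COX8A) in complex IV and from 6.98 (ATP5F1D) to 646 in complex V. Summed over the 57 genes, the level in CPM was 8441.5, 8949 and 9047 in WT, 8383, 8264 and 8327 in 1-1 KO and 8107, 8070 and 8258 in 1-2 KO. All knockout libraries lay below all WT libraries, although the lowest WT library was only slightly above the highest 1-1 KO library. This order holds after TMM, whose factors were 0.9746 to 0.9769 in WT and 1.004 to 1.028 in the knockouts. The sums were not computed with library size alone. In 1-1 KO the log2 ratio of the mean sum to WT was -0.22 for complex II and -0.21 for complex V. It was -0.02 for complexes I and III and 0.01 for complex IV. For complex V, too, WT lay above both knockouts, with 3096 ± 97.1 CPM in WT, 2686 ± 9.91 in 1-1 KO and 2768 ± 91.4 in 1-2 KO (SD, n = 3). For complex IV, WT (1990.07 ± 85.2) and 1-1 KO (2007 ± 22.7) overlapped and 1-2 KO (1784 ± 29.5) was lower in all libraries. For complex I, both knockouts overlapped with WT and 1-2 KO lay below 1-1 KO in all libraries, and for complex III all lines overlapped.

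**Figure D3:**
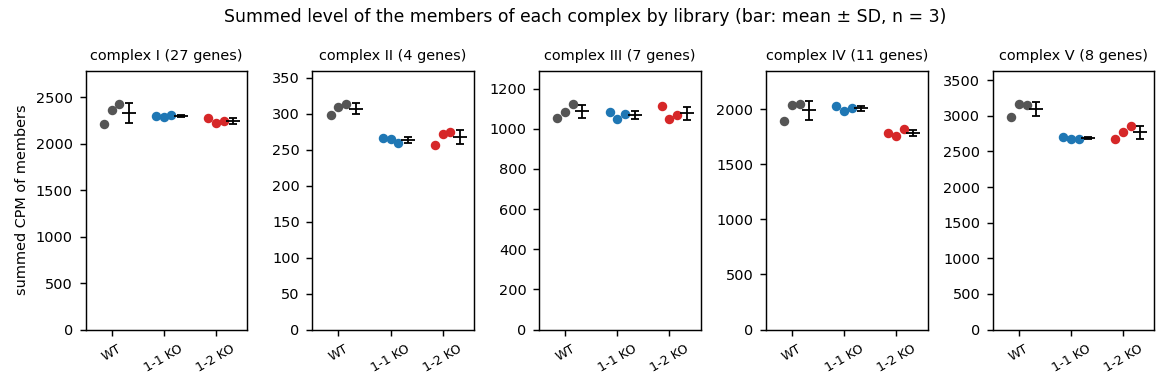
Summed level of the subunit genes of each complex in CPM, for each library (points) with the mean ± SD of the 3 libraries per line. The sums of complexes II and V lay lower in both knockouts than in WT, and that of complex IV lay lower in 1-2 KO.

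Compared directly, 13 of the 57 genes were higher and 29 lower in 1-2 KO than in 1-1 KO, with 15 not called and a median log2 fold change of -0.12, beside 0.01 over all tested genes. The background was 65.3% called, 33.1% higher and 32.2% lower, and 73.7%, 22.8% and 50.9% of the subunit genes were called in these ways. The libraries of the knockouts did not overlap for 43 genes (75.4%), with a background of 69.8%. In complex I, 14 genes were lower and 4 higher in 1-2 KO, NDUFS4 by the most (-0.66, adjusted p = 3.10e-07). COX5A had the largest called rise (0.62, SE 0.12, adjusted p = 5.24e-04), which was 0.40 without 1-2 KO replicate 1, and NDUFA4 the largest fall of complex IV (-0.57, SE 0.05, adjusted p = 9.31e-08). NDUFV1 (0.37), ATP5F1A (0.32) and COX6A1 (0.45) were higher in 1-2 KO than in 1-1 KO. COX5B was lower (-0.55, SE 0.20, adjusted p = 0.0253), a call lost without 1-1 KO replicate 1 (-0.52), 1-1 KO replicate 3 (-0.55), 1-2 KO replicate 2 (-0.49) or 1-2 KO replicate 3 (-0.45), and with DESeq2 (-0.55, adjusted p = 0.135).

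The subunit genes lie on 20 chromosomes, and their changes went with those of the genes beside them. The 50 tested genes nearest to each on its chromosome were taken as its neighbours, and their median log2 fold change was computed. Over the 57 genes, Pearson's r between a gene's value and this median was 0.78 in 1-1 KO and 0.70 in 1-2 KO (Spearman's rho 0.76 and 0.56), a description across genes that share libraries and, in part, neighbours. Of the called genes, 35 of 40 in 1-1 KO and 24 of 32 in 1-2 KO had the sign of their neighbours. Neither the correlations nor these shares were computed over all tested genes. Whether subunit genes differ from other genes in this respect is therefore not known. On chromosome 1, all 5 genes (NDUFS5, SDHB, SDHC, UQCRH and ATP5PB) were lower in 1-1 KO and also in 1-2 KO, and the medians of all tested genes of this chromosome were -0.19 and -0.13. On chromosome 8, all 4 (NDUFB9, UQCRB, CYC1 and COX6C) were higher in 1-1 KO, where the median of the chromosome was 0.23. Neighbours of COX5B rose by a median of 0.72 in 1-1 KO, and 2 further mitochondrial genes of the same region of chromosome 2 rose there as well, COA5 (98599314 to 98608515), an assembly factor of complex IV, by 1.33 and MRPL30 (99181152 to 99199561), a protein of the mitochondrial ribosome, by 1.32 on the log2 scale. Neighbours of NDUFS4 were at 0.06 in 1-1 KO and -0.75 in 1-2 KO, and those of ATP5F1C at -0.55 and -0.62. Copy number was not measured here, and its part in these shifts was not tested.

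A called gene was counted as standing out from its neighbours where more than 50% of its log2 fold change remained, with the same sign, after their median was subtracted. In 1-1 KO this left 5 genes higher and 12 lower, with a background of 44.5% of all tested genes in either direction, 22.5% higher and 21.9% lower. In 1-2 KO it left 6 higher and 15 lower, with a background of 42.7%, 23.5% higher and 19.2% lower. In 1-2 KO against 1-1 KO it left 6 higher and 14 lower, with a background of 46.2%, 23.1% higher and 23.1% lower. ATP5MC1 stood out in both knockouts, at -0.74 and -0.63 relative to its neighbours. NDUFS4 stood out in 1-1 KO (-0.66), but in 1-2 KO its remaining -0.51 was less than that share. Among others that stood out lower in 1-2 KO were NDUFA1 (-0.59), UQCRQ (-0.51), NDUFB2 (-0.50), NDUFC2 (-0.46), COX7B (-0.44) and COX6B1 (-0.41). ATP5F1C did not by this rule, with -0.17 and -0.44 remaining. COX5B kept 0.27 of its 0.98 in 1-1 KO.

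**Figure D4:**
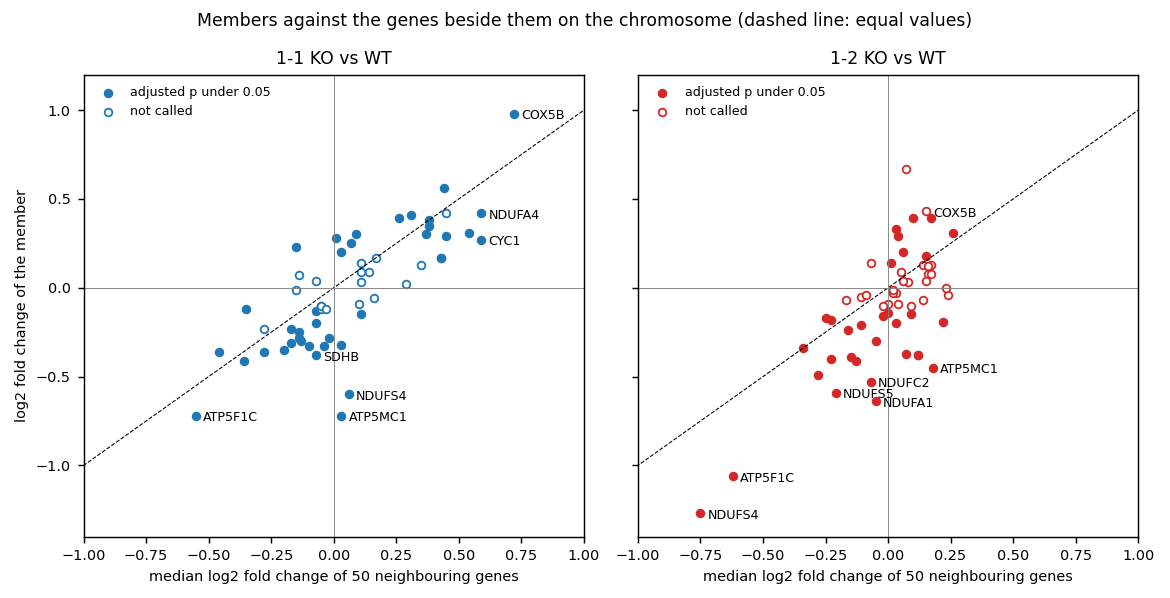
Log2 fold change of each subunit gene against that of its 50 neighbours (their median), in 1-1 KO (left) and 1-2 KO (right), with filled points for called genes and a dashed line of equal values. In 1-1 KO, COX5B lay 0.27 above the line, and ATP5MC1 lay far below it in both panels.

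For 7 genes, the highest WT library was more than 1.4 times the lowest: NDUFB10, NDUFS6, NDUFS7, NDUFV2, COX5B, COX8A and ATP5F1D. In all 7, WT replicate 1 was lowest and WT replicate 3 highest, and in 6 of the 7 replicate 1 was the highest of 1-2 KO. Among genes with a WT mean of at least 10 CPM, 6 of 56 subunit genes and 1.68% of 8975 tested genes had such a spread. NDUFS7, a quinone-reducing subunit given in full after its values were seen, was at 22.1, 31.0 and 46.2 CPM in WT, 45.1, 43.99 and 42.5 in 1-1 KO and 35.8, 29.7 and 30.5 in 1-2 KO. WT alone thus covered the whole range of the 9 libraries, and the gene was not called in 1-1 KO (0.42, SE 0.17, adjusted p = 0.0504) but was called without WT replicate 3 (0.73) or 1-2 KO replicate 1 (0.42). In 1-2 KO its value was -0.04 (adjusted p = 0.879), and 0.25 without WT replicate 3. The exons of the 7 genes had a median GC content of 57.9%, and those of the other 50 genes 46.8%. Among the 7 it ranged from 45.2% (NDUFV2, with a 2.36-fold WT spread) to 67.6% (ATP5F1D, with 1.70-fold). Over all tested genes, a library's deviation from its line's mean had a Pearson's r with GC content of -0.05 in WT replicate 1, -0.20 in WT replicate 2, 0.22 in WT replicate 3, 0.25 in 1-2 KO replicate 1 and -0.22 in 1-2 KO replicate 2. With the GC offset, 19 subunit genes were higher and 20 lower in 1-1 KO, and 10 higher and 24 lower in 1-2 KO. Without the 3 libraries that stood apart, the counts were 20 and 25 in 1-1 KO and 9 and 26 in 1-2 KO.

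Some counts can include or lose reads shared with other genes, since neither the strand setting nor the handling of reads with several matches is stated in the sources used here. NDUFV2, a core iron-sulfur subunit of complex I, was at only 1.56, 2.11 and 3.68 CPM in WT, 3.17, 2.63 and 2.30 in 1-1 KO and 5.89, 2.89 and 2.62 in 1-2 KO. It shares 28.4% of its exon bases with a gene on the same strand, ENSG00000265257, which had 0 counts, and its processed pseudogene NDUFV2P1 was at between 1.64 and 2.64 CPM over the 9 libraries. No call was made for NDUFV2 (0.17 and 0.67, adjusted p = 0.664 and 0.0874), and the level is uncertain. SDHA shares 21.7% of its exon bases with ENSG00000286001 and has 4 named pseudogenes, which held 4100 counts over all libraries beside 9846 for SDHA. For COX7C, pseudogenes held 6304 counts beside 52721, and for COX6C 1937 beside 34614. The pseudogene ATP5F1CP1 on chromosome 14 was at 7.21, 7.73 and 6.69 CPM in WT, 3.64, 4.13 and 3.73 in 1-1 KO and 2.80, 3.26 and 3.84 in 1-2 KO, the same order of lines as ATP5F1C on chromosome 10. NDUFS7 and NDUFB2 have 51.4% and 35.1% of their exon bases opposite genes of the other strand.

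Other genes of the pathway were counted from lists for subunits outside the 57, assembly factors, regulators, the mitochondrial DNA, the citric acid cycle and the mitochondrial ribosome. Of 203 listed genes, 195 were tested, with 46 higher and 85 lower in 1-1 KO and 26 higher and 82 lower in 1-2 KO. The background over all tested genes was 32.5% higher and 30.9% lower in 1-1 KO, and 28.2% and 26.2% in 1-2 KO. It applies to each list below, and a count near it is not particular to the list. The other nuclear subunits had 9 higher and 7 lower of 22 in 1-1 KO (median 0.14), and 1 higher and 16 lower in 1-2 KO (median -0.20), or 2 higher without WT replicate 3 or 1-2 KO replicate 3. ATP5ME, a membrane subunit of the ATP synthase, fell from 106 ± 2.85 CPM in WT to 81.7 ± 1.17 in 1-1 KO and 52.3 ± 3.31 in 1-2 KO (SD, n = 3), with log2 fold changes of -0.37 and -1.02. ATP5MK, also of the ATP synthase membrane part, was at -0.36 and -0.64. ATP5PD of the peripheral stalk was higher in 1-1 KO (0.36) and lower in 1-2 KO (-0.17).

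All 13 mRNAs of the mitochondrial DNA were tested, and 11 were lower and 0 higher in 1-1 KO (median -0.31). In 1-2 KO, 6 were lower and 0 higher (median -0.15). The background was 30.9% lower in 1-1 KO and 26.2% lower in 1-2 KO. At an unadjusted p under 0.05, edgeR gave 12 lower and 0 higher in 1-1 KO and 6 lower and 0 higher in 1-2 KO, and DESeq2 also called 0 higher at an adjusted p under 0.05 in each. Without WT replicate 1, 2 were higher in 1-2 KO. Their sum was 33444, 28319.8 and 25531 CPM in WT, 23644, 21767 and 23341 in 1-1 KO and 24983, 25977 and 27939 in 1-2 KO, so that WT replicate 1 stood highest and 1-2 KO overlapped with WT. MT-CYB, cytochrome b of complex III, was at -0.65 and -0.38 (-0.24 in 1-2 KO without WT replicate 1), MT-CO3 of complex IV at -0.35 and -0.27, and MT-ATP8 of complex V at -0.42 and -0.48, all called. MT-ND3 of complex I was lower in 1-2 KO (-0.20, adjusted p = 4.48e-04), with -0.09 in 1-1 KO (adjusted p = 0.0628), where it was called without WT replicate 1 (-0.11) or 1-2 KO replicate 1 (-0.09). Among 12 regulators, 3 were higher and 6 lower in 1-1 KO and 2 higher and 4 lower in 1-2 KO. TFB2M, a transcription factor of mitochondrial DNA, fell in both knockouts (-0.69 and -0.32), and TFAM, which packages that DNA, was at -0.11 and -0.26. GABPB1, a subunit of the ETS factor GABP, was lower in 1-1 KO (-0.50, adjusted p = 2.37e-07), with 0.03 in 1-2 KO (adjusted p = 0.53).

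Of 55 assembly factors, 11 were higher and 24 lower in 1-1 KO, and 6 higher and 22 lower in 1-2 KO. Here and for the next lists, the background was 63.4% called in 1-1 KO and 54.4% in 1-2 KO. UQCC1, which helps to build complex III, was at -0.69 and -0.24, COA7 of complex IV at -0.44 and -0.48, and COX14, also of complex IV, fell in 1-2 KO (-0.56, adjusted p = 5.64e-07), with 0.01 in 1-1 KO (adjusted p = 0.837). Among 13 genes of the citric acid cycle, 2 were higher and 8 lower in 1-1 KO (median -0.48), and 5 higher and 3 lower in 1-2 KO (median 0.03). Without any 1 of the WT libraries, 1-1 KO replicate 1 or 1-1 KO replicate 2, 1 gene of the cycle was higher in 1-1 KO. DLD, the E3 subunit shared by the 2-oxoacid dehydrogenases, fell from 252 ± 5.47 to 146 ± 2.92 CPM in 1-1 KO (-0.78, adjusted p = 8.25e-10) and was at -0.06 in 1-2 KO (adjusted p = 0.22). IDH3B was likewise lower in 1-1 KO (-0.59), FH, fumarase, was lower in 1-1 KO (-0.50) and higher in 1-2 KO (0.47), and SUCLG1 was higher in both (0.44 and 0.35). Of 77 tested mitochondrial ribosomal proteins, 21 were higher and 29 lower in 1-1 KO, and 11 higher and 31 lower in 1-2 KO, where 4 were higher without WT replicate 1 and 5 without WT replicate 2 or 1-2 KO replicate 1. MRPL24 was lower in 1-1 KO (-1.34), beside neighbours at -0.61, and at -0.27 in 1-2 KO. MRPS21 was at -0.95 and -1.05, and MRPL54 fell in 1-2 KO (-0.68), with 0.07 in 1-1 KO (adjusted p = 0.208).

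Tissue isoforms and paralogs of the subunits were at low levels or at 0 counts. Of 9 listed, 3 passed the filter, and COX6A2 and COX8C had 0 counts in all libraries. NDUFA4L2, a paralog of NDUFA4 known from hypoxia, was at 0.471 ± 0.0999 CPM in WT, 0.596 ± 0.0480 in 1-1 KO and 0.877 ± 0.0223 in 1-2 KO (SD, n = 3), and was called higher in 1-2 KO (0.88, SE 0.21, adjusted p = 0.00292). UQCRHL (-0.75 and -0.30) and SDHAP3 (-0.13 and 0.11), a pseudogene of SDHA, were not called in either knockout.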

How the data were processed

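Total RNA of 9 libraries, 3 for each line, had been prepared as stranded mRNA libraries and sequenced as paired reads. Alignment to hg38 (STAR) and gene counting (featureCounts) were done by the authors, and the deposited table holds raw counts. Tool versions, the strand setting, the treatment of reads with several matches, and whether reads or fragments were counted are not given in the sources used here. All 9 columns of the table were used and 0 were left out. Positions were taken from GENCODE 44 on GRCh38, and the 201 identifiers without an entry there held 0.0192% of the counts.

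The counts were analysed with edgeR 4.0.16 in R 4.3.3. Genes were kept by filterByExpr (minimum count 10, minimum total count 15), libraries were scaled by TMM, and all 9 libraries entered 1 quasi-likelihood fit with 3 contrasts, without covariates. Adjusted p-values are Benjamini-Hochberg values over all 17207 genes, with a threshold of 0.05. DESeq2 1.42.0 (Wald test), other scalings and filters, a threshold of 0.01, fits restricted to the pair of lines compared, a replicate block, leaving out each library, and subtraction of the neighbours' median were tried as alternatives. The fit was tested on simulated counts for 1-1 KO against WT. It called 137 of 196 changed genes in the right direction, and 8 unchanged genes. The 196 were among 16863 genes, a far smaller share than the 63.4% called in the data, so the test does not cover that setting. Tables and figures were made with Python 3.11.15, pandas 2.3.3, numpy 2.4.6 and matplotlib 3.10.9.

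Genes given with every library were the called gene with the largest rise and that with the largest fall in each complex and knockout, 10 core subunits, the 3 genes called in opposite directions with the largest direct difference, and 5 genes chosen after their values were seen. Of the other lists, the 2 genes with the smallest adjusted p in each knockout and the detected isoforms were named, except 1 gene that is not reported here. The 57 genes and the lists were chosen with earlier results of these data known.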

Additional observations from a re-analysis of the deposited data

How the results depend on the processing

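In 1-2 KO and in the direct comparison, more subunit genes were lower than higher and the median was below 0 under each alternative. In 1-1 KO the median was close to 0 and its sign was not stable. It was 0.04 with library size alone, with 21 higher and 18 lower, and 0.01 with a filter of 10 counts in every library. Leaving out each library in turn gave 13 to 20 subunit genes higher and 19 to 24 lower in 1-1 KO, 4 to 10 higher and 21 to 26 lower in 1-2 KO, and 11 to 13 higher and 25 to 29 lower in 1-2 KO against 1-1 KO, with medians from -0.08 to 0.00, from -0.12 to -0.06 and from -0.14 to -0.10. The median in 1-1 KO was -0.08 without WT replicate 1. For the other genes of the pathway the ranges were 37 to 50 higher and 78 to 89 lower, 19 to 34 and 75 to 88, and 53 to 62 and 60 to 70. Higher subunit genes in 1-2 KO numbered 13 with library size alone, 5 with DESeq2 and 3 at a threshold of 0.01, where the other genes numbered 16. With the neighbours' median subtracted, 5 subunit genes were higher and 12 lower in 1-1 KO (median -0.07), 15 lower in 1-2 KO, and 6 higher and 14 lower in the direct comparison, and of the other genes 14 were higher and 53 lower in 1-1 KO and 35 higher and 36 lower in the direct comparison. The cause of these changes was not tested, apart from the subtraction itself.

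The correlations of same-numbered libraries' deviations were between -0.187 and 0.0474, and those of differently numbered libraries between -0.142 and 0.237. Same-numbered libraries thus shared no clear deviation, but whether they were handled together is not stated. With the replicate block, 17 subunit genes were higher and 21 lower in 1-1 KO, 7 and 23 in 1-2 KO, and 13 and 27 in the direct comparison, and the calls of NDUFA9 in 1-2 KO (adjusted p = 0.0686) and ATP5F1D in the direct comparison (adjusted p = 0.0539) were lost.

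Of 1358 log2 fold changes of named genes under alternatives other than leaving out 1 library, 1216 kept sign and call, 62 lost the call, 32 gained it and 48 changed sign, and of 1224 with 1 library left out the numbers were 1155, 40, 14 and 15. The 1224 include fits without a library of the line outside the comparison. Such a library enters only through the filter, the scaling and the shared spread, so agreement there says little. With the neighbours subtracted, the sign changed in 1-1 KO for ATP5PD (-0.16), COX5A (0.05), CYC1 (-0.32), MRPL54 (-0.27), MT-ND3 (0.28, beside other mitochondrial genes), NDUFA4 (-0.17), NDUFB3 (-0.25), NDUFS1 (-0.23), NDUFS7 (-0.03), TFAM (0.04) and UQCRB (-0.07). In 1-2 KO it changed for COX6A1 (-0.02), MRPL30 (-0.07), NDUFA9 (0.05), NDUFB7 (-0.08), NDUFS1 (-0.09), NDUFS7 (0.06), NDUFV1 (-0.11) and UQCRFS1 (-0.03). In the direct comparison it changed for ATP5F1B (-0.11), ATP5F1D (0.03), COX4I1 (0.03), COX5B (0.05), COX6A1 (0.00), NDUFA4 (0.03), NDUFS1 (0.16), NDUFS4 (0.02) and UQCRH (0.00). With GC content as an offset it changed in 1-2 KO for ATP5F1A (0.04), ATP5F1D (-0.23), DLD (0.02), NDUFB7 (-0.19), NDUFV1 (-0.04) and UQCRB (0.01), in 1-1 KO for MRPL54 (-0.07), and in the direct comparison for COX7A2 (0.00) and CYC1 (-0.03). Without the 3 libraries that stood apart it changed for COX14 in 1-1 KO (-0.05), for COX6A1 (-0.04), MRPL30 (-0.02) and NDUFB7 (-0.01) in 1-2 KO, and for COX7A2 (0.00) and CYC1 (-0.13) in the direct comparison. With library size alone it changed in 1-2 KO for ATP5F1A (0.05), IDH3B (0.04) and NDUFS7 (0.02), and COX14 in 1-1 KO was 0.00 with DESeq2 and 0.00 with no filter.

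Leaving out 1 library changed the sign of the results given here, with these ranges over the libraries left out. In 1-1 KO, COX14 was from -0.02 to 0.04, NDUFB10 from -0.01 to 0.33 and SDHAP3 from -0.54 to 0.10. In 1-2 KO, ATP5F1A was from -0.04 to 0.03, ATP5F1D from -0.08 to 0.37, IDH3B from -0.06 to 0.02, MRPL30 from 0.00 to 0.06, NDUFB7 from -0.02 to 0.13, NDUFS7 from -0.26 to 0.25 and SDHAP3 from -0.12 to 0.29. In the direct comparison, COX7A2 was from -0.09 to 0.01 and CYC1 from -0.12 to 0.15. CYC1 was called lower in 1-2 KO than in 1-1 KO without 1-2 KO replicate 1 (adjusted p = 0.0302). Each knockout was 1 line, so that a change of the line cannot be told apart from that of the deleted gene. Of the genes named, NDUFV2, SDHAP3 and UQCRHL had the widest SEs, from 0.31 to 0.36 in the knockouts against WT, so that small changes of these were not detectable.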
